A study of Caenorhabditis elegans with 4 samples.

Results

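The miRNA repertoire of wild type (WT) worms was described from 1 small RNA library of the strain N2 Bristol, made from whole *C. elegans* at day 0 of adulthood, which the labels define as the first adult day, after growth at 25 °C. It covers all 434 mature miRNA names in the annotation used for the counts, which come from 250 hairpins, and 231 of these names had reads in WT. The series holds 3 further libraries. These are *glp-1(e2144)* (strain CF1903) at 25 °C, ALG-1/OE (strain CT20, carrying zaIs5, in which the *alg-1* promoter drives GFP::ALG-1, with the *rol-6(su1006)* marker) at 20 °C, and ctrl (strain PE255, carrying feIs5, in which the *sur-5* promoter drives luciferase::GFP, with the same *rol-6* marker) at 20 °C. The other libraries are also of day 0 adults on streptomycin-resistant OP50-1 bacteria, and they serve here only to show where WT differs. By the labels each library came from a pool of about 1000 worms, while the study's methods give smaller pools. The *glp-1(e2144)* allele is temperature sensitive and leaves adults grown at the restrictive temperature without most of their germline. Each strain has 1 library, so no value below has an error between worm pools, and strain, temperature and library preparation cannot be told apart.

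A miRNA is cut from a hairpin in the primary transcript by Drosha, in worms DRSH-1, and then by Dicer, which leaves a duplex of a 5p and a 3p arm. An Argonaute protein, in worms mainly ALG-1 or ALG-2, keeps the guide arm, and the other arm is mostly degraded. miRNAs with the same seed near the 5′ end form a family and can repress the same mRNAs, and hairpins that lie close together are often cut from a shared transcript.

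Reads on mature miRNAs numbered 211140 in WT, and between 175048 and 536907 in the other libraries. Values are reads and the share of the library's mature miRNA reads, with an exact Clopper-Pearson 95% interval that covers counting error of reads only. PCR copies of a molecule were counted as separate reads, so the counting error of molecules may be larger than these intervals. For a miRNA without reads the one-sided limit of 3 reads was used, or 0.00142% of the WT library, whereas the two-sided interval reaches 0.00175%. Because whole animals were sequenced, fewer cells of a type and less RNA per cell cannot be told apart.

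A few miRNAs made up most of the WT library. The most abundant was miR-82-3p, a homologue of the fly growth regulator bantam, with 33404 reads or 15.8% (15.7% to 16.0%). It was followed by miR-57-5p, which in the embryo acts on the Hox gene *nob-1* in the tail, with 28498 reads or 13.5% (13.4% to 13.6%). These leading miRNAs stood apart from all others, since miR-57-5p had 2.45 times (2.40 to 2.51) the reads of miR-81-3p, the next in order. miR-82-3p had 1.17 times (1.15 to 1.19) the reads of miR-57-5p, a gap beyond counting error. Reads then declined in small steps, and the neighbours miR-81-3p (11621 reads), miR-72-5p (11356) and miR-80-3p (10976) had overlapping intervals between each and the next.

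The rest of the first 10 were miR-228-5p, a homologue of vertebrate miR-183, with 9784 reads, miR-70-3p with 9476, miR-58a-3p with 8832, and the embryonic miR-35-3p with 7580 and miR-39-3p with 6611. Together the first 10 held 65.4% of the reads. The following 10 ranged from 6312 reads for miR-64-5p to 2335 for miR-229-5p, and between them lay, in order, miR-65-5p (5321), miR-237-5p (5267), miR-235-3p (4197), miR-37-3p (4151), miR-246-3p (3894), miR-48-5p (3844), miR-90-3p (3619) and miR-85-3p (2858). Adjacent ranks in this stretch often had overlapping intervals, as for miR-65-5p with 2.52% (2.45% to 2.59%) and miR-237-5p with 2.49% (2.43% to 2.56%). The first 20 held 85.2% of the reads in WT.

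**Figure D1:**
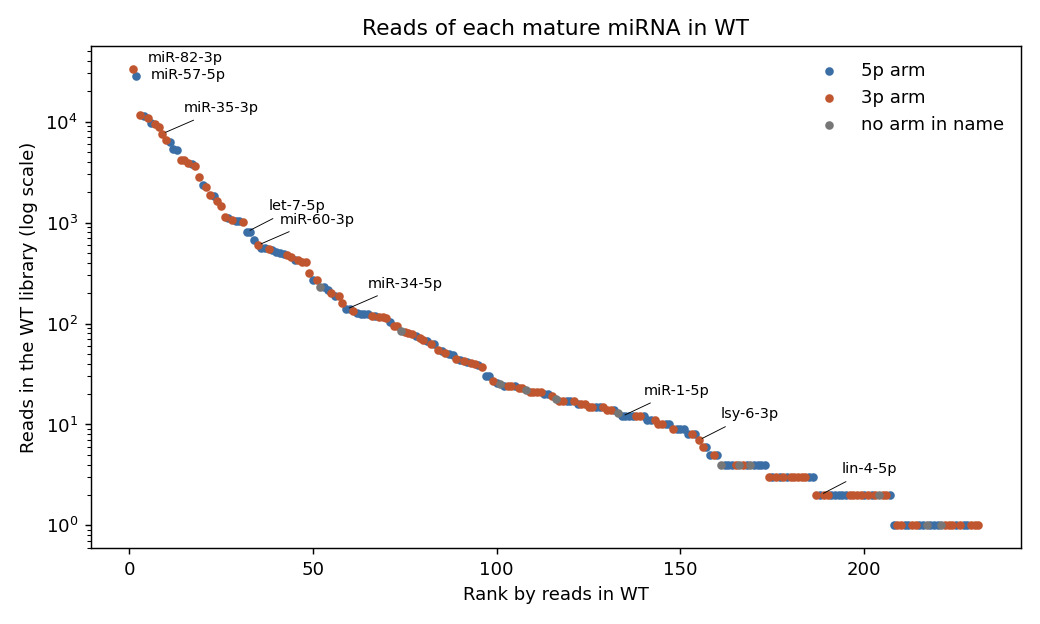
Reads of the 231 mature miRNAs with reads in the WT library (vertical axis, log scale) against their rank (horizontal axis), with points coloured by arm. miR-82-3p and miR-57-5p stand above all others, and miR-1-5p, lsy-6-3p and lin-4-5p lie in the tail at 12 reads or fewer.

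The library was concentrated on few names. In WT, 6 miRNAs were needed to reach 50% of the reads, 26 to reach 90% and 78 to reach 99%. At the other end, 84 names had between 1 and 9 reads, and these held only 251 reads or 0.119% of the library. Between these ends lay 31 names with 1000 reads or more, 71 with 100 or more and 147 with 10 or more. The number of equally abundant miRNAs that would give the same Shannon entropy was 27.3 in WT, and in the others 26.01 (ctrl), 28.2 (ALG-1/OE) and 22.6 (*glp-1(e2144)*). The WT value therefore lay within the range of the other libraries.

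Grouped into families by name, 9 of 18 families held more than 1% of the WT reads each and 66.2% (66.0% to 66.4%) together. These sums take both arms of each hairpin, so they include partner arms whatever their seed. The mir-58 family of bantam homologues, whose joint loss gives small worms, was the largest with 65456 reads or 31.0% (30.8% to 31.2%). Within it, the mir-82 hairpin gave 51.0% of the reads, mir-81 17.8%, mir-80 17.6% and mir-58a 13.6%. The mir-58b hairpin had 0 reads in WT. The mir-81 and mir-80 parts had overlapping intervals, whereas mir-82 and mir-58a lay apart from the rest. These intervals do not cover reads that match several members, whose treatment is not given.

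The mir-35 family, made in the germline and early embryo and required for embryonic development, came next with 23954 reads or 11.3% (11.2% to 11.5%). Reads were found on both arms of its 8 hairpins, or 16 mature miRNAs. *glp-1(e2144)* worms, which lack most germ cells, had 0.0756% for the family. The ALG-1/OE and ctrl libraries, both at 20 °C, had 8.78% and 6.51%, so the WT share was the highest of the 4.

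The family of mir-229 and mir-63 to mir-66 held 7.53% (7.42% to 7.64%), led by miR-64-5p. The mir-72 family, related to vertebrate miR-31, held 5.92% (5.82% to 6.02%), and 90.9% of it came from the mir-72 hairpin, with 8.11% from mir-73 and 1.01% from mir-74. Such uneven families were common, and in the miR-190-related family of mir-50, mir-62 and mir-90, which held 1.96% of the library, mir-90 gave 87.7%. The mir-51 family of miR-100 homologues was more even. Its hairpins gave 1642 reads (mir-54), 1191 (mir-52), 576 (mir-51), 461 (mir-55), 158 (mir-56) and 123 (mir-53), and together they held 1.97% (1.91% to 2.03%). The mir-238 family held 1.29% (1.24% to 1.34%), with 1667 reads on mir-238, 533 on mir-239b and 527 on mir-239a.

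**Figure D2:**
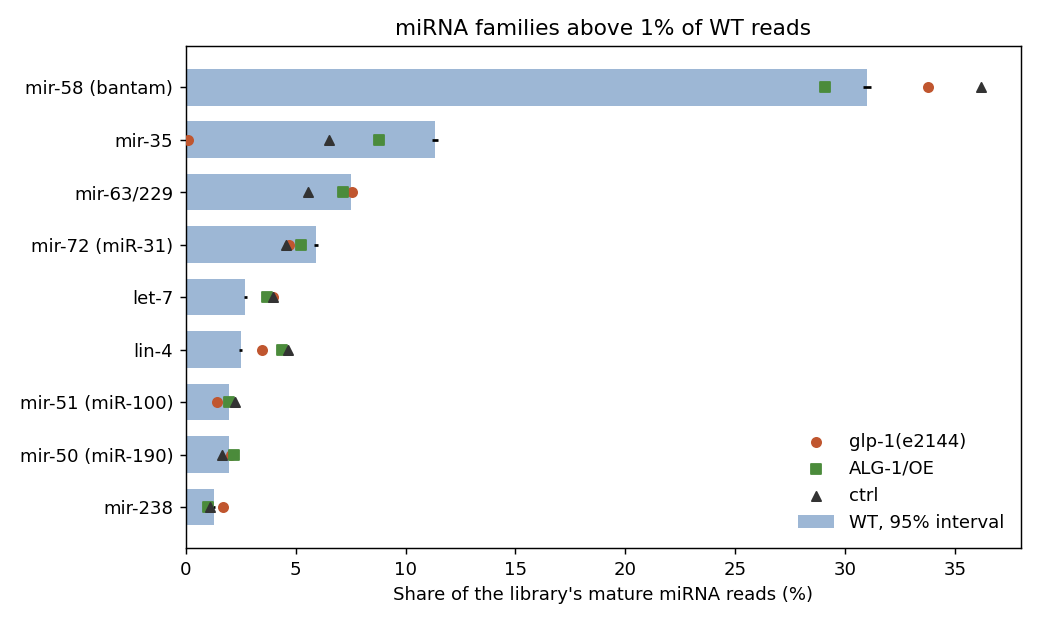
Share of mature miRNA reads (horizontal axis, %) of the 9 families above 1% in WT, with WT as bars and their 95% Clopper-Pearson interval, and the other libraries as points. The mir-58 family leads in each of the 4 libraries, while the mir-35 family ranges from 0.0756% in glp-1(e2144) to 11.3% in WT.

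The miRNAs that time larval development were uneven in these young adults. The let-7 family, which promotes the change from larval to adult cell fates in the hypodermis, held 5689 reads or 2.69% (2.63% to 2.76%). miR-48-5p alone gave 3844 of these, and had 4.76 times (4.41 to 5.15) the reads of let-7-5p with 807. miR-84-5p, with 802 reads, lay within counting error of let-7-5p. The hairpins of the distant relatives mir-793, mir-795 and mir-794 gave 85, 70 and 20 reads. miR-241-5p, the arm known as the guide, had 0 reads in each of the 4 libraries, while its partner miR-241-3p had 15 in WT.

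The lin-4 family, related to vertebrate miR-125, held 2.50% (2.43% to 2.57%), nearly all of it miR-237-5p with 5267 reads. lin-4-5p, the founding miRNA of the heterochronic pathway, had 2 reads in WT, and 2 in ctrl, 1 in ALG-1/OE and 12 in *glp-1(e2144)*. Its arm partner lin-4-3p had 0 reads in WT. Low read numbers of lin-4-5p were thus found in each of the libraries and were not particular to WT. lin-4-5p and miR-241-5p are both 21 nt long, a length whose names mostly had few reads, as described below. The part of length was not tested.

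Tissue markers were also uneven. The muscle miRNA miR-1 had 12 reads on its 5p arm and 0 on miR-1-3p, which is known as the guide. Of the 5 neuronal hairpins, mir-124 and mir-234 had 0 reads, mir-790 had 11, lsy-6, which sets the asymmetry of the taste neurons, had 8, and mir-791, of the carbon dioxide sensing neurons, had 2. All 10 neuronal mature miRNAs together held 21 reads, or 0.00995% (0.00616% to 0.0152%). By contrast, the intestinal miR-60-3p had 596 reads, and its hairpin held 0.289% (0.267% to 0.313%). The listed markers of muscle and neurons thus lay at or near 0 in a library labelled as whole organism, and those of intestine and of germline or embryo did not. Muscle and intestine rest on 1 hairpin each. miR-1-3p, miR-124-3p and miR-234-3p are 21 nt long, against 23 nt for miR-60-3p and 22 nt for miR-35-3p. Of 28 names of 21 nt with numbers below 1000 or letter names, 12 had 0 reads in WT. The low lsy-6-3p, miR-790-3p and miR-791-5p have 22 or 23 nt, and the part of length was not tested. In the other libraries the miR-1 arms together had between 9 and 29 reads.

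Among the miRNAs tied to lifespan and stress, miR-246-3p, miR-71-5p and miR-238-3p, which promote long life in worms, had 3894, 1846 and 1641 reads. The miR-239 pair, whose deletion extends lifespan, lay lower with 533 reads on miR-239b-5p and 510 on miR-239a-5p. miR-34-5p, known from DNA damage and stress responses, had 138. The whole list held 8765 reads or 4.15% (4.07% to 4.24%) of the WT library, and 11 of its 12 mature miRNAs had reads.

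A further list of miRNAs shared with other animals held 32565 reads or 15.4% (15.3% to 15.6%), and 25 of its 26 mature miRNAs had reads. Besides those named above, miR-236-3p of the miR-200 family had 1468 reads, miR-86-5p 271, miR-2-3p 202, miR-79-3p, a miR-9 homologue, 133, and miR-87-3p 79. The miR-29 homologues miR-83-3p and miR-49-3p had 68 and 43. Only miR-235-5p was at 0, also in the other libraries, while its partner miR-235-3p had 4197. miR-243-3p, which is loaded into the RNAi Argonaute RDE-1, had 161 reads, and miR-62, a mirtron that is spliced out of *ugt-50*, had 13.

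Reads were spread unevenly over the genome. Chromosome II held 33.4% (33.2% to 33.6%) of the WT reads with 48 of the 250 hairpins (19.2%), and chromosome X held 28.1% (27.9% to 28.3%) with 70 hairpins (28.0%). Chromosome III held 15.8% with 26 hairpins, chromosome IV 12.03% with 49, chromosome V 6.55% with 25 and chromosome I 4.11% with 32. A single miRNA made up much of most of these shares. miR-57-5p gave 40.4% of the reads of chromosome II, miR-82-3p 56.3% of chromosome X and miR-70-3p 68.6% of chromosome V. The median read number of hairpins with reads was highest on chromosome III with 444, and 44 on chromosome II, so the order by total was not that of the typical hairpin.

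Coordinates of 243 of the 250 hairpins equalled the WBcel235 annotation, and their place in protein-coding genes was taken from it. Hairpins outside such genes numbered 142 and gave 44.7% (44.5% to 44.9%) of the reads, led by mir-57. A further 62 lay in an intron on the strand of the gene and gave 35.5%, led by mir-82 (chromosome X, 2435258 to 2435354, minus strand) in *gid-2*. The 29 hairpins in an intron on the opposite strand gave 19.4%, among them mir-81, which lies in the same gene as mir-82 but on the other strand, and the hairpins of the mir-35 cluster in *Y62F5A.9*. Hairpins that overlap an exon were few, 7 on the strand of the gene and 3 on the opposite strand, and gave 93 and 27 reads.

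Hairpins on the same strand with gaps of at most 10 kb formed 27 clusters, which held 76 hairpins (30.4%) and 37.1% (36.9% to 37.4%) of the reads. This share depended on the gap allowed, and was 21.1% in 16 clusters at 1 kb and 46.7% in 33 clusters at 50 kb. The richest was that of mir-35 to mir-41 on chromosome II (11537608 to 11538404, plus strand) with 23910 reads or 11.3%. Although these 7 hairpins lie within a stretch of less than 1 kb, their reads differed widely, with 7591, 1926, 4381, 429, 7283, 2265 and 35 in genomic order. Their 3p arms ranged from 7580 reads for miR-35-3p to 23 for miR-41-3p, a ratio of 330. The order of reads did not follow the order of the hairpins, since mir-35 and mir-39 were high and mir-38 and mir-41 low.

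In the cluster of mir-229, mir-64, mir-65 and mir-66 on chromosome III (2172452 to 2173206, plus strand), in an intron of *gcn-1*, the hairpins gave 2881, 6331, 5323 and 1042 reads. The range was narrower here, with miR-64-5p at 6.08 times (5.69 to 6.49) the reads of miR-66-5p. The cluster of mir-90, mir-238 and mir-80 on chromosome III held 7.97% (7.85% to 8.09%) with 3623, 1667 and 11537 reads, although these members belong to different families. In the pair mir-228 and mir-790 on chromosome IV, nearly all reads (9825 of 9836) were on mir-228, and in mir-241 and mir-48 on chromosome V on mir-48 (3871 of 3886). The cluster of mir-54, mir-55 and mir-56 on chromosome X gave 1642, 461 and 158 reads, and mir-71 with mir-2 on chromosome I gave 1962 and 205. In each of these 7 clusters the members therefore differed in reads by more than counting error. Below 1% of the library lay the other clusters, led by mir-73, mir-74 and mir-75 on chromosome X with 1014, 126 and 42 reads. The cluster with the most hairpins, 11 with numbers above 1000 on chromosome X (1872466 to 1880038, plus strand), had only 20 reads, 18 of them on mir-1018.

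**Figure D3:**
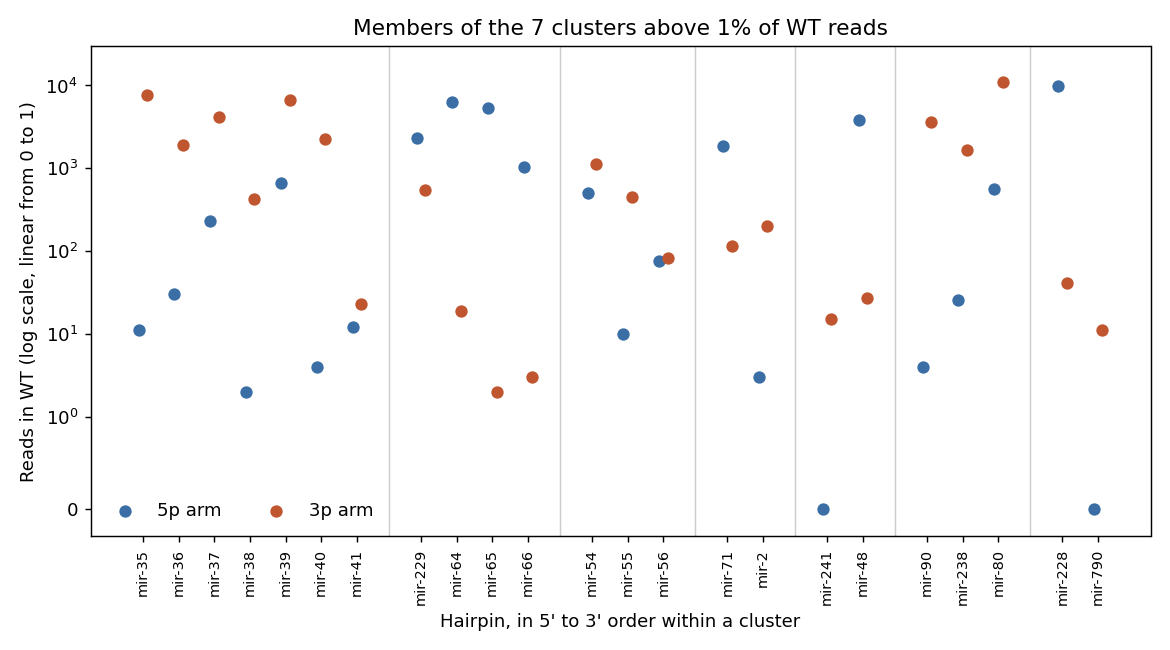
Reads in WT (vertical axis, log scale that is linear from 0 to 1) on the 5p and 3p arm of each hairpin in the 7 clusters above 1% of the library, in 5′ to 3′ order within a cluster and with grey lines between clusters. Neighbouring hairpins can differ widely, as mir-40 and mir-41 do with 2261 and 23 reads on their 3p arms.

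The reads were divided between arms as 58.8% (58.6% to 59.0%) on 3p and 40.97% (40.8% to 41.2%) on 5p arms, and the rest on names without an arm. Arm choice was read for the 100 hairpins with rows for both arms and at least 10 reads. For 90 of them (90%) the interval of the 5p share left out 50%, the value of an even split, with a major 5p arm in 38 (38%) and a major 3p arm in 52 (52%). These calls include mir-1, with 12 reads on 5p, and mir-241, with 15 on 3p, whose arms known as guides had 0 reads. They also include mir-786 and mir-8203, which lie on opposite strands and have the same counts with the arms exchanged. The choice was mostly strict, since the minor arm had less than 5% of the reads in 61 hairpins, less than 1% in 43, and 0 reads in 24. Over the hairpins, the median share of the minor arm was 2.12%. Among the 31 hairpins with at least 1000 reads it was 0.300%, and all of them had a major arm, 5p in 12 and 3p in 19.

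The strictest of these hairpins were mir-57, with 28498 reads on 5p and 0 on 3p, mir-244, with 1045 and 0, and mir-65, with 5321 and 2. On the other side stood mir-235, with 4197 reads on 3p and 0 on 5p, mir-85, with 2858 and 0, and mir-82, with 33404 and 4. For mir-57 the interval allowed a 5p share down to 99.99%. A rarer 3p arm of mir-57 was not detectable at this depth.

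Other hairpins kept both arms. Among the 63 with at least 100 reads, 8 had a 5p share between 25% and 75%. The most abundant was mir-54, with 503 reads on 5p and 1139 on 3p, or 30.6% (28.4% to 32.9%) on 5p. Its cluster neighbour mir-56 had 75 and 83 reads, 47.5% (39.5% to 55.6%), an even split within counting error, whereas mir-55 between them had 10 and 451. Members of a cluster and family thus differed in arm choice as well as in reads. mir-46 had 138 reads on 5p and 407 on 3p, mir-243 had 54 and 161, mir-45 had 44 and 113, and mir-44 had 215 and 95. In mir-44, of the same family as mir-45, the major arm was 5p (69.4%, 63.9% to 74.4%), and in mir-45 it was 3p (28.0% on 5p, 21.2% to 35.7%). The mature miR-44-3p and miR-45-3p are known to share their sequence, so reads of these arms may have been split between the loci. The last of the 8, the overlapping hairpins mir-5592-1 and mir-5592-2 on opposite strands of chromosome X, had the same counts of 120 and 117 with the arms exchanged, and the strand of their reads is uncertain.

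**Figure D4:**
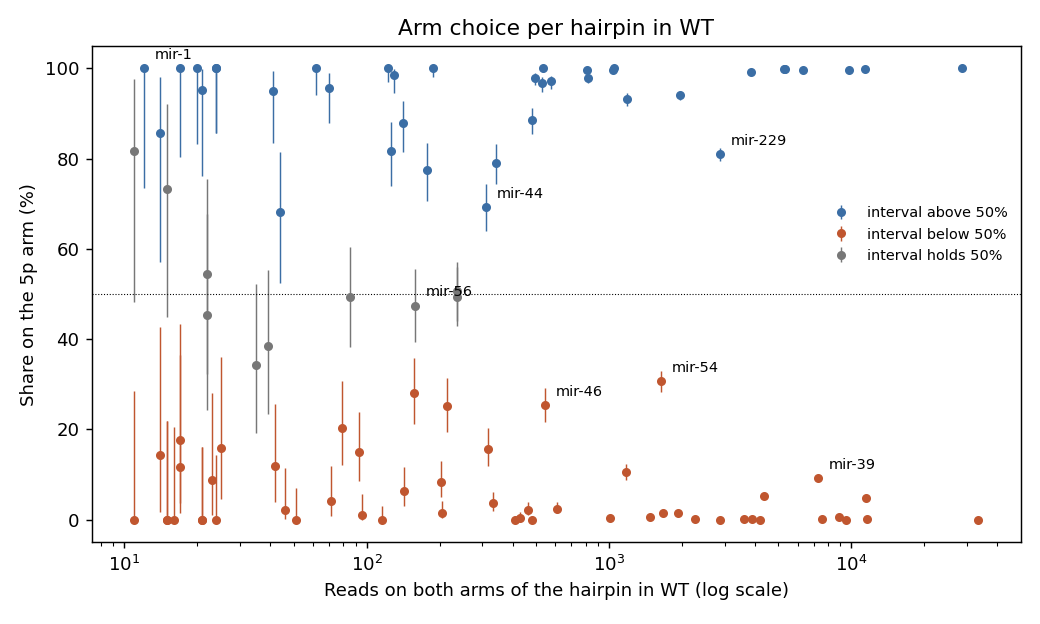
Share of reads on the 5p arm (vertical axis, %, with 95% Clopper-Pearson intervals) against the reads on both arms (horizontal axis, log scale) for the 100 hairpins with at least 10 reads in WT. Most points lie near 0% or 100%, and mir-54 is the most abundant hairpin with a 5p share between 25% and 75%.

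Where a major arm could be called in both libraries, it was nearly always the same arm. Of the hairpins with a major arm in WT and in the library compared, the same arm was major in 84 of 84 for ctrl, 88 of 88 for ALG-1/OE and 85 of 86 for *glp-1(e2144)*. The exception was mir-44, whose 5p share was 69.4% in WT and 11.2% in *glp-1(e2144)*, with 65.5% for ctrl and 65.8% for ALG-1/OE. This share is uncertain, since the 3p reads of mir-44 and mir-45 may have been split between the loci, as said above. Their 3p arms had 95 and 113 reads in WT, and 254 and 296 in *glp-1(e2144)*. Smaller shifts were seen over 88 hairpins with at least 10 reads in each of the 4 libraries. The WT interval lay above the intervals of all other libraries in 1 (1.14%), mir-54, and below them in 3 (3.41%), mir-228, mir-52 and mir-77. The 5p share of mir-54 was 30.6% in WT and 11.3%, 21.9% and 14.1% in *glp-1(e2144)*, ALG-1/OE and ctrl. That of mir-52, a further miR-100 homologue, was 93.2% (91.6% to 94.6%) in WT and 99.3%, 96.0% and 97.8% in the others. In both of these hairpins the minor arm therefore took a larger share in WT. For mir-77 the minor 5p arm was instead lower in WT, with 10.5% (8.82% to 12.4%) against 16.6%, 23.0% and 19.1%. For mir-228 the 5p share was 99.6% in WT and between 99.8% and 99.9% in the others. These intervals cover counting error in single libraries, and no test between strains was possible.

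In its order of miRNAs, WT was closer to ALG-1/OE and ctrl than to *glp-1(e2144)*. Of the first 20 in WT, 19 were also among the first 20 of ctrl, 20 for ALG-1/OE and 17 for *glp-1(e2144)*, and miR-82-3p and miR-57-5p held the first ranks in each library. Those missing from *glp-1(e2144)* were miR-35-3p, miR-39-3p and miR-37-3p of the mir-35 family, with 125, 84 and 71 reads there. Members of this family with at least 10 reads in both libraries also entered the correlation that follows. Over the miRNAs that reached 10 reads in WT and in the library compared, Spearman's rho of the shares with WT was 0.97 for ALG-1/OE (137 miRNAs), 0.96 for ctrl (129) and 0.79 for *glp-1(e2144)* (128). The points are miRNAs of the same libraries and are no replicates. None of 112 miRNAs with at least 50 reads in some library was called with a WT share 4-fold or more above those of all other libraries (0%) or below them (0%). A call above needed at least 50 reads in WT, and a call below at least 50 in each other library. Some of the 112 could therefore not be called. No miRNA was therefore a mark of the WT library by this rule. For miR-57-5p the WT share lay within the range of the other libraries, with 13.5% in WT, 9.15% in ctrl, 11.0% in ALG-1/OE and 15.1% in *glp-1(e2144)*.

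Hairpins without reads on any mature row numbered 100 of 250 (40%) in WT. Of these, 81 had no reads in any of the 4 libraries, and the other 19 had at most 8 reads in any of them, so no hairpin that was well covered elsewhere was missing in WT. Conversely, 5 hairpins had reads in WT alone, with at most 2 reads. Late-annotated hairpins, numbered 1000 and above, made up most of the missing ones. Among these 121 hairpins 80 (66.1%) had no reads, against 20 (15.5%) of the 129 with lower numbers or letter names. The late-annotated hairpins with reads had a median of 3 reads, and all of them held 0.517% (0.487% to 0.548%) of the reads. This share may count some reads more than once. It includes both mir-5592-1 and mir-5592-2, with 237 reads each and identical counts, and mir-8203, whose 14 reads equal those of mir-786 opposite to it. Of the hairpins with lower numbers, the missing ones included mir-124 and mir-247, which had at most 2 reads in another library. The others, among them mir-234, mir-58b and mir-264 to mir-273, had no mature reads in any of the 4 libraries.

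The annotated length of the mature miRNAs, which the choice of the library did not involve, also went with their reads. Names of 22 to 24 nt held 42.1%, 37.0% and 17.4% of the WT reads. The 80 names of 21 nt or less made up 18.4% of the annotation but 2.20% (2.14% to 2.27%) of the reads, and 3894 of their 4651 reads were miR-246-3p. Among the names of lower number or letter name, 28 were 21 nt long, with a median of 1.5 reads, whereas the 95 of 22 nt had a median of 17 and the 66 of 23 nt a median of 20.5. Of the 28, 12 had 0 reads in WT, and 11 of these had 0 reads in all 4 libraries, the exception being miR-1-3p with between 1 and 5 reads elsewhere. The 12 included miR-1-3p, miR-124-3p, miR-234-3p and miR-241-5p, and lin-4-5p, with 2 reads, is also 21 nt long. In the other libraries names of 21 nt or less held between 2.58% and 4.71% of the reads. Length was examined after the reads had been seen, and its part in the low reads of these miRNAs was not tested.

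**Figure D5:**
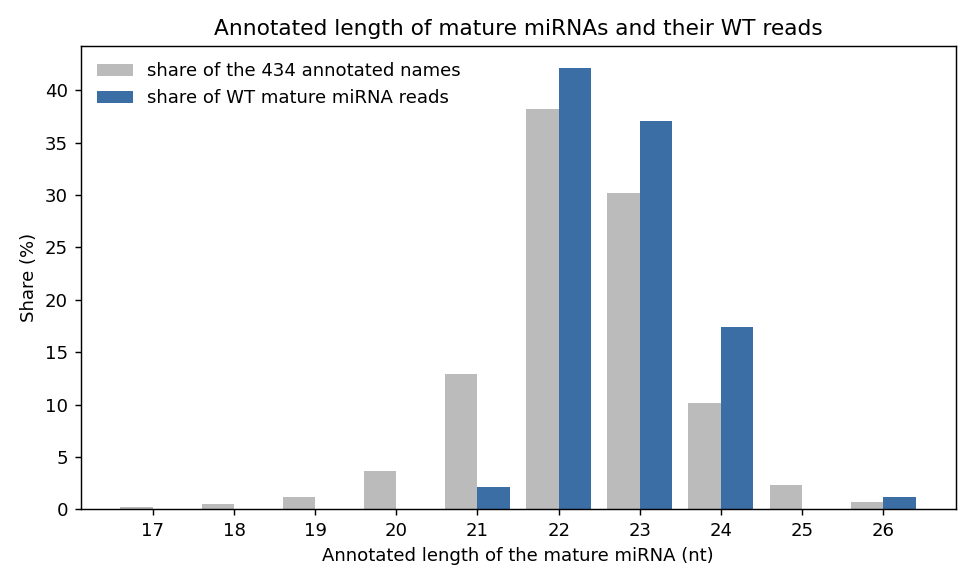
Share (vertical axis, %) of the 434 annotated names (grey) and of the WT mature miRNA reads (blue) by annotated length of the mature miRNA in nt (horizontal axis). Names of 21 nt make up 12.9% of the annotation and 2.12% of the reads, and those of 24 nt 10.1% and 17.4%.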

How the data were processed

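Small RNA was enriched from 6 µg of total RNA of each worm pool. The labels name a SOLiD library kit and the study's methods an Illumina instrument, and this was not settled. The authors trimmed adapters and dropped short reads (Fastx-ToolKit), aligned to ce10 with Bowtie2 and deposited unnormalized read counts over 697 rows (447 mature, 250 hairpin). The counting program and its treatment of strand and of reads with several matches are not given in the sources used here. A mature name with several rows was represented by its row with the most WT reads. Shares, Clopper-Pearson intervals, clusters and arm shares were computed with Python 3.11.15, pandas 2.3.3 and scipy 1.17.1. Only the intervals of arm shares were tested on simulated reads, and the cluster rule on a small set with a known answer. With 1 library per strain no condition was tested. Depth was 211140 mature reads in WT, so a miRNA with few reads has a wide interval.

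Families were to be set by bases 2 to 8 of the mature sequence. No miRNA sequences were used here, so families follow the usual name groups, and the alternative seed of bases 2 to 7 was not run. Host genes came from the Ensembl WBcel235 annotation, only for the 243 hairpins at equal coordinates. Named were the 20 most abundant miRNAs, members of families and clusters above 1%, hairpins of at least 100 reads with a 5p share of 25% to 75%, the 3 most extreme arm splits on each side at 1000 reads or more, and fixed miRNA lists. Any other miRNA was named after its values were seen. Members and lists were chosen with earlier results of these data known. Alternatives changed the duplicate rule, the denominator, the read minimum, the cluster distance and the rows counted.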

Additional observations from a re-analysis of the deposited data

Results flagged for a closer look

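The hairpin rows held reads that no mature row of the same hairpin counted, and these were noted because they lie outside the main measurement. In WT they numbered 64 of 211438 reads, or 0.0303% (exact Clopper-Pearson 95% interval 0.0233% to 0.0387%), on 23 hairpins, and 35 of them lay on mir-35 to mir-41. Above the one-sided limit of 3 reads that a count of 0 allows stood mir-39 with 11 reads, mir-40 with 10, mir-354 with 8, and, only just, mir-35, mir-36 and mir-38 with 4 each. For mir-354 these were 8 of 23 reads on the hairpin, and for the others a small part of 433 to 7595.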

How the results depend on the processing

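Of 23 alternatives, 18 left the value within its counting interval or the count within 1.5 times. With at least 10 reads required, 147 in place of 231 miRNAs counted as read. With gaps of at most 1 kb, 16 in place of 27 clusters held 21.1% of the reads in place of 37.1%, and with 50 kb 46.7%, which follows from the number of hairpins joined. With at least 100 reads per hairpin, 63 in place of 100 hairpins could be read for arm choice, and 33 in place of 52 had a major 3p arm. That lower count follows from the fewer hairpins read, and the share with a major 3p arm hardly changed. No paired analysis was possible because each strain has 1 library and no replicates. For the same reason no library could be left out, and the intervals cover counting error only. Depth limits the names below 10 reads.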

Other observations

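Some miRNAs overlap on opposite strands and have identical counts in the deposited data. In WT, mir-786 had 2 reads on 5p and 12 on 3p, and mir-8203, opposite to it, had 12 on 5p and 2 on 3p. Single mature names with reads in WT but in no other library numbered 12, with at most 4 reads, as for miR-40-5p.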
